A study of Mus musculus with 4 samples.

Results

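The genes described here are 8 members of the DNA topoisomerase and Brwd1 families, *Top1*, *Top2a*, *Top2b*, *Top3a*, *Top3b*, *Brwd1*, *Brwd3* and *Phip*. They were found by symbol among the 24391 gene symbols of a count table, and all 8 were present. *Top2b* and *Brwd1* were included because their proteins are studied together with Phf2 as candidate partners of cohesin, and the others because they are their relatives. The table holds RNA-seq of mouse embryonic fibroblasts (MEFs), with 2 WT and 2 *Phf2* KO libraries. The primary cells came from E13.5 embryos and were arrested in quiescence by confluence and low serum. By the labels, all 4 libraries carry *Phf2* flox/flox and ERCre/+, so that WT cells also hold the floxed alleles and the inducible recombinase. CreERT2 is made from the *Rosa26* locus, which is active in most cell types. Tamoxifen is labelled for the *Phf2* KO libraries alone, and the protocol, worded alike for every library, gives 0.5 µM 4-hydroxytamoxifen for 7 days. Loss of *Phf2*, active Cre and the drug therefore cannot be told apart in these libraries. The labels do not state whether the replicates came from separate embryos, though sex-linked RNAs differed between them (below). The p-values measure only the spread between these samples.

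Topoisomerases relieve the twisting and tangling of DNA that transcription, replication and loop formation produce. Type I enzymes cut a single strand: Top1 relaxes supercoils around transcribed genes, whereas Top3a, with its partners Blm and Rmi1, resolves joined DNA molecules, and Top3b works on RNA as well as DNA together with Tdrd3. Type II enzymes pass a whole duplex through a cut in another. Top2a is made mainly in dividing cells and untangles sister chromosomes in mitosis, whereas Top2b is made in dividing and resting cells alike and occurs with cohesin and CTCF at chromatin loop anchors. Brwd1, Brwd3 and Phip share WD40 repeats and bromodomains, which bind chromatin, and can act as substrate receptors of ubiquitin ligases built on Cul4 and Ddb1.

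The libraries held between 21094743 and 26094268 counts. In CPM, counts scaled to a common library total, the detection floor of 3 counts came to at most 0.142. *Phf2* itself had 3244 and 3680 counts in WT against 1454 and 2158 in *Phf2* KO MEFs, which left 57.9% of the WT level over the whole gene (log2 difference -0.79, standard error 0.14) but was not called in the test used below (edgeR adjusted p = 0.999). It was called with the replicate number as a block (-0.80, standard error 0.08, edgeR adjusted p = 7.67e-19). The libraries of replicate 1 differed from those of replicate 2 in both groups. Replicate 1 held 10042 (WT) and 8336 (*Phf2* KO) counts of *Xist*, the RNA that coats the silenced X. Replicate 2 held at most 12. The Y-linked *Ddx3y* showed the reverse, with 6 and 10 counts in replicate 1 against 1271 and 1295 in replicate 2. By these genes replicate 1 was female and replicate 2 male in both groups, so the replicates of a group came from different embryos. All 15 fibroblast markers were detected, led by *Col1a1* and *Col1a2*. They summed to 91067 and 93984 CPM in the WT libraries and to 81110 and 78124 CPM in the *Phf2* KO libraries, lower in both. Their part in the results below was not tested. The 14 macrophage markers, led by *Lyz2* and *Cd68*, summed to 3651 (WT) and 4157 CPM (*Phf2* KO) in replicate 1, but to 794 and 1253 CPM in replicate 2. Endothelial, muscle and neural markers summed to between 17.9 and 80.8 CPM per library and the epithelial markers to at most 1.0. The endothelial sum was 49.0 (WT) and 43.1 CPM (*Phf2* KO) in replicate 1, but 17.9 in both libraries of replicate 2. The most abundant were *Vwf* and *Kdr* (endothelial), *Des* and *Tnnt2* (muscle), *Map2* and *Tubb3* (neural) and *Krt18* and *Krt8* (epithelial). In WT replicates 1 and 2, *Vwf* had 647 and 152 counts and *Des* 1279 and 609. In *Phf2* KO they had 556 and 202, and 664 and 338. *Myod1*, *Myog*, *Krt5*, *Krt14* and *Tie1* were at 3 counts or fewer in every library. Since these are bulk samples, fewer cells of a type and less RNA per cell cannot be told apart.

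Because the members are paralogs, it was first asked whether reads of 50 bases could be assigned to the wrong relative. In the coding transcripts of the GENCODE annotation of mm9 (NCBIM37), none of the 50-base words of any member occurred in a transcript of another gene (0 of 5663 words for *Top2a*, 0 of 5754 for *Top2b* and 0 of 13958 for *Brwd1*). The longest stretch shared by the longest transcripts of *Top2a* and *Top2b* was 23 bases, and *Brwd1* and *Brwd3* shared 22. Both stretches are coding and cross an exon junction, at chr11:98871912-98872240 (reverse strand) for *Top2a*, chr14:17231258-17231424 (forward strand) for *Top2b*, chr16:96269047-96274145 (reverse strand) for *Brwd1* and chrX:105979572-105980999 (reverse strand) for *Brwd3*. They are shown as 50 bases of spliced transcript, the length of a read, with the shared stretch in capitals.
Top2a: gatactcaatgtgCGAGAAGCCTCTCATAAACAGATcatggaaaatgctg
Top2b: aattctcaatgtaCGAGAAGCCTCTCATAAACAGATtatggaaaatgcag
Brwd1: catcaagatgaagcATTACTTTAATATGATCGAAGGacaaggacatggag
Brwd3: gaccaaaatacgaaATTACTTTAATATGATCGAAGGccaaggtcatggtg
Compared position by position, the *Top2a* and *Top2b* windows differed at 5 of 50 bases and the *Brwd1* and *Brwd3* windows at 11. *Brwd3* and *Phip* shared at most 23 bases, *Brwd1* and *Phip* 17, and *Top3a* and *Top3b* 11. Pseudogenes and noncoding transcripts were not compared.

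The members lie on 6 chromosomes of mm9. *Top1* is at chr2:160471624-160548500, *Top2b* at chr14:17197693-17263301 and *Top3b* at chr16:16870829-16893083, all on the forward strand. *Top2a* (chr11:98854257-98885503), *Top3a* (chr11:60553560-60590867), *Brwd1* (chr16:96213699-96304133), *Brwd3* (chrX:105932355-106029711) and *Phip* (chr9:82759766-82869096) are on the reverse strand. Exons of *Top2a* overlap the small nucleolar RNA SNORA32 on the same strand, exons of *Top3b* overlap *Vpreb1* on the opposite strand and exons of *Brwd1* overlap the noncoding *Gm15342* on the opposite strand. The second strand was made with dUTP and the alignment is described as reverse stranded, but whether the counting used strand is not stated, so counts of *Top3b* and *Brwd1* could include reads of these partners.

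All 8 members were expressed and passed the filter on low counts. Levels were compared between genes as normalized CPM per kilobase (kb) of the union of annotated exons. *Top3b* was the most abundant (mean 11.5, range over the 4 libraries 10.2 to 12.8), followed by *Top2b* (10.2, 9.42 to 11.6), and their ranges overlapped. *Top1* came next (7.20, 6.74 to 7.43), then *Top3a* (4.90, 4.74 to 5.26). *Brwd1* (2.84, 2.73 to 3.04), *Phip* (2.69, 2.43 to 3.17) and *Top2a* (1.96, 1.35 to 2.56) formed a lower group in which each gene overlapped the next. *Brwd3* was the least abundant (0.636, 0.534 to 0.719), below all ranges of the others.

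**Figure D1:**
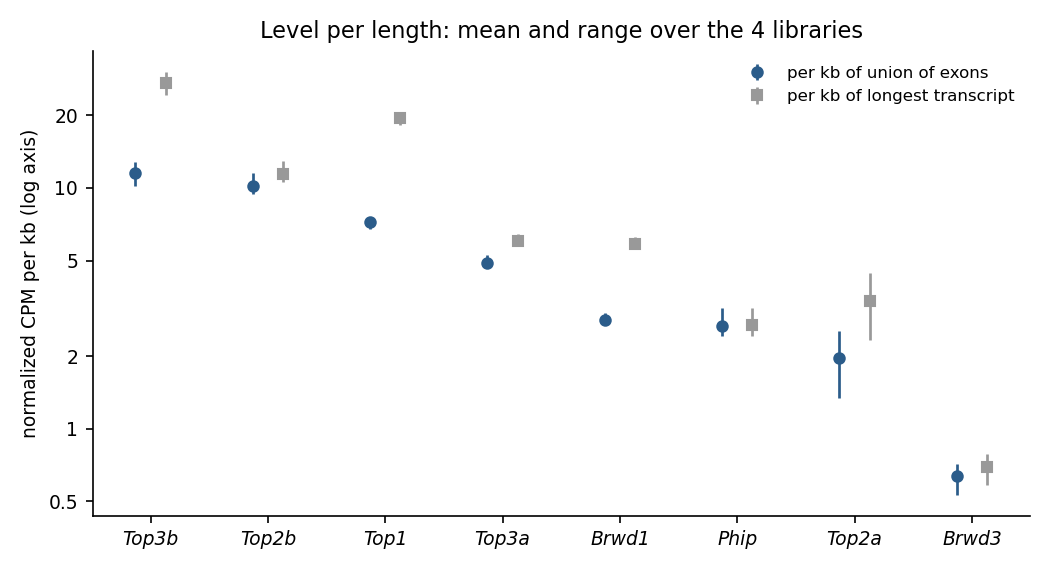
Normalized CPM per kb (log axis) of each gene over the 4 libraries, as the mean (symbol) and range (bar), with the union of exons or the longest transcript as the length. *Top3b* is highest and *Brwd3* lowest with both lengths, whereas *Top1* lies at 7.20 with the union and at 19.5 with the longest transcript.

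The choice of length mattered for this order. *Top1* has 10457 bases in the union of its exons and 3856 in its longest transcript, and *Top3b* has 8340 and 3511. With the longest transcript, *Top1* (19.5) moved above *Top2b* (11.4) and *Top2a* (3.41) above *Phip* (2.69). The ranges of *Top2a* (2.34 to 4.45) and *Phip* (2.43 to 3.17) overlapped, so this pair did not differ beyond its spread. *Top3b* (27.3) stayed first and *Brwd3* (0.695) last.

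Within the type II enzymes, *Top2b* made up most of the transcripts in every library. The share of *Top2a* in the sum of both genes, per kb of union exons, was 18.1% (replicate 1) and 12.5% (replicate 2) in WT, against 16.7% and 16.6% in *Phf2* KO MEFs. The *Phf2* KO values lay between the WT values. Within the Brwd1 family, *Brwd1* took 46.1% ± 1.18 (SD, n = 4 libraries), *Phip* 43.5% ± 2.46 (SD, n = 4) and *Brwd3* 10.4% ± 1.58 (SD, n = 4). These shares also depended on the length. Per kb of the longest transcript, the mean shares were 63.4% for *Brwd1*, 29.0% for *Phip* and 7.56% for *Brwd3*. The mean share of *Top2a* in the type II enzymes was then 22.7%. An exact permutation test of 2 against 2 libraries cannot go below p = 0.33, so shares were not tested.

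To ask whether deletion of *Phf2* altered the expression of these genes, *Phf2* KO was compared with WT in edgeR's quasi-likelihood test over 13668 genes, with genes called at a Benjamini-Hochberg adjusted p-value under 0.1. None of the 8 members was called (0 of 8, against 0.00732% of all genes tested), and 0 had an unadjusted p-value under 0.05, against 4.21% of all genes. DESeq2, limma-voom and edgeR's likelihood ratio test also called 0 of 8, against 0.399%, 0% and 0.3% of all genes. With the replicate number as a block, 0 of 8 were called by edgeR, DESeq2 and limma-voom, against 11%, 3.67% and 10% of all genes, and DESeq2 gave no adjusted p for *Brwd3*. The log2 fold changes ran from -0.09 for *Top2b* to 0.19 for *Brwd3*, with a median of 0.06 against 0.01 over all genes, and 7 of the 8 were smaller than their standard error. These tests do not show that levels are equal. For the 7 members other than *Top2a*, the 95% intervals of the fitted ratios ran from 0.746 to 1.60, whereas the interval for *Top2a* ran from 0.557 to 1.82. These intervals and standard errors are from the fit without the replicate block. With it, the log2 fold change of *Top2a* was 0.07 (standard error 0.12). Those of *Phip* (0.11, standard error 0.10) and *Brwd3* (0.20, standard error 0.15) exceeded their standard errors, and those of the other members did not. The fit with the block leaves 1 residual degree of freedom, and its standard errors come mostly from all other genes. For *Top2a* the log2 ratios within replicates 1 and 2 were -0.41 and 0.57. Its standard error of 0.12 therefore does not cover its own spread between replicates.

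**Figure D2:**
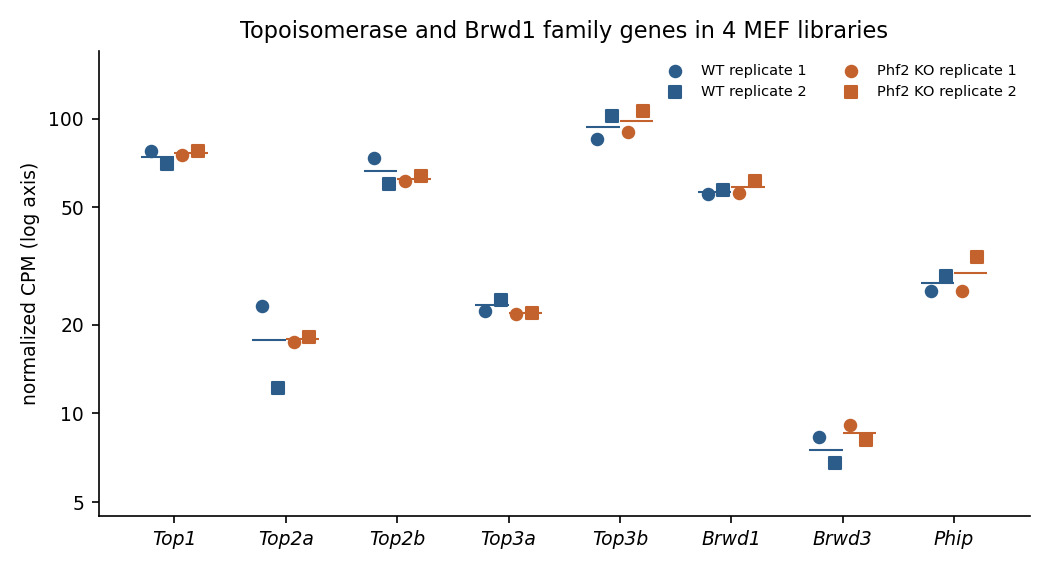
Normalized CPM (log axis) of the 8 genes in each library, with horizontal bars at the group means of 2 libraries. Values of WT and *Phf2* KO overlap for 7 of the 8 genes, and the WT libraries lie farthest apart for *Top2a* (23.2 and 12.2).

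*Top2b*, the type II enzyme made in dividing and resting cells alike, had 1772 and 1553 counts in the WT libraries, or 73.5 and 59.8 CPM. The *Phf2* KO libraries had 1269 and 1540 counts, or 61.2 and 64.1 CPM (replicate 1 first, here and below). Only WT replicate 1 stood above the other 3 libraries. Means of 66.7 ± 9.66 (SD, n = 2) and 62.7 ± 1.99 CPM (SD, n = 2) gave a fitted log2 difference of -0.09, with a standard error of 0.13 and an edgeR adjusted p of 0.999. Without WT replicate 1 it was 0.08 and without WT replicate 2 it was -0.25, both uncalled.

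*Top2a*, the type II enzyme made mainly in dividing cells, had 560 and 317 counts in the WT libraries, or 23.2 and 12.2 CPM. In *Phf2* KO MEFs it had 363 and 437 counts, or 17.5 and 18.2 CPM. The WT libraries were thus the highest and the lowest of the 4, and the *Phf2* KO libraries lay close together between them. The group means were 17.7 ± 7.79 (SD, n = 2) and 17.8 ± 0.466 (SD, n = 2) CPM. The log2 fold change was 0.01 with a standard error of 0.32, the largest among the members. It was 0.56 without WT replicate 1 and -0.40 without WT replicate 2.

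*Top1*, the relaxing enzyme of transcribed genes, had 77.5 and 70.4 CPM in WT against 75.5 and 77.7 CPM in *Phf2* KO MEFs. All 4 values lay within 1.10-fold of each other, the narrowest range among the members. The log2 fold change was 0.05 (standard error 0.09).

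*Top3a* had 22.3 and 24.2 CPM in WT against 21.8 and 21.9 CPM in *Phf2* KO MEFs. It was the only member whose groups did not overlap (1 of 8, against 33.5% of all genes tested and 18% in this direction), with both *Phf2* KO libraries below both WT libraries by a log2 fold change of -0.09 (standard error 0.11). It was -0.14 without WT replicate 1 and -0.044 without WT replicate 2. *Top3b* had 85.1 and 102.4 CPM in WT against 89.8 and 106.5 CPM in *Phf2* KO MEFs, so that the replicates of each group lay farther apart than the groups.

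*Brwd1* had 1336 and 1485 counts in the WT libraries, or 55.4 and 57.2 CPM. In *Phf2* KO MEFs it had 1162 and 1482 counts, or 56.1 and 61.6 CPM. Replicate 1 of *Phf2* KO lay between the WT libraries and replicate 2 above them. Means of 56.3 ± 1.27 (SD, n = 2) and 58.9 ± 3.94 CPM (SD, n = 2) gave a log2 fold change of 0.06 (standard error 0.09) with an interval of the ratio from 0.884 to 1.24.

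*Phip*, first described as a partner of insulin receptor substrates, had 26.1 and 29.3 CPM in WT against 26.1 and 34.0 CPM in *Phf2* KO MEFs. Replicate 1 was thus alike in both groups and replicate 2 of *Phf2* KO was the highest. The X-linked *Brwd3*, mutations of which are a known cause of intellectual disability in humans, had 8.30 and 6.78 CPM in WT against 9.12 and 8.11 CPM in *Phf2* KO MEFs, and the groups overlapped. Its counts of 176 to 200 per library were the lowest of the members. Its log2 fold change of 0.19 (standard error 0.18) was the largest of the members in size and was 0.36 without WT replicate 1 and 0.04 without WT replicate 2.

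Since the replicate numbers differ in many genes, the ratio of *Phf2* KO to WT was also taken within each number, where it compares 2 libraries and has no test. In replicate 1 the ratio was 0.754 for *Top2a*, a log2 ratio of -0.41 with a 95% counting interval from -0.60 to -0.21. In replicate 2 it was 1.49, a log2 ratio of 0.57 with an interval from 0.36 to 0.79. The directions were thus opposite, and counting intervals leave out all variation between cultures. *Top2b* went the same ways with smaller ratios, 0.833 in replicate 1 (log2 interval -0.37 to -0.16) and 1.07 in replicate 2 (log2 interval -0.00461 to 0.20). *Top1* was the remaining member with opposite signs, with ratios of 0.974 and 1.10. In all, 3 of 8 members had opposite signs in replicates 1 and 2, against 37.2% of all genes tested.

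**Figure D3:**
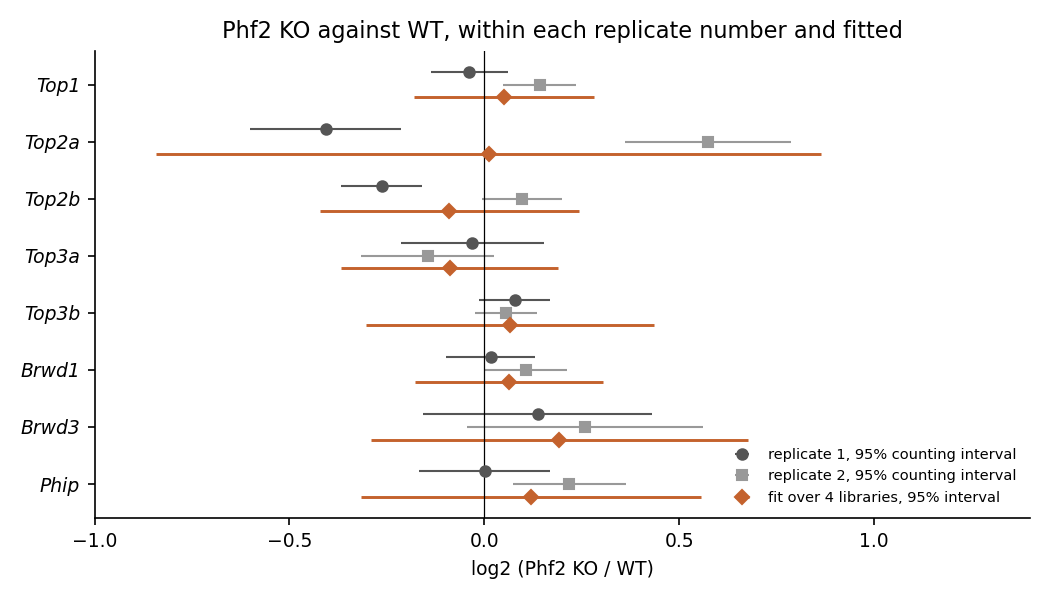
Log2 ratio of *Phf2* KO to WT for each gene within replicate 1 and within replicate 2, with 95% counting intervals, and from the edgeR fit over the 4 libraries with its 95% interval. The replicates of *Top2a* lie on opposite sides of 0, at -0.41 and 0.57, and all 8 fitted intervals include 0.

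The ratios of *Top3b* (1.06 and 1.04), *Brwd1* (1.01 and 1.08), *Brwd3* (1.10 and 1.20) and *Phip* (1.00 and 1.16) were at or above 1 in replicates 1 and 2, and those of *Top3a* (0.979 and 0.904) below 1. The counting intervals of the replicates overlapped for each of these 5 genes.

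The spread between the replicate numbers was then tested with genotype in the fit, which leaves 1 residual degree of freedom and takes its spread mostly from all other genes. The labels do not say what the numbers stand for. By *Xist* and *Ddx3y* the replicate number goes with sex in both groups, so sex and other differences between replicates cannot be told apart here. By edgeR, 3 of 8 members differed between replicates 1 and 2 (26.2% of all genes tested did). *Top3b* was lower in replicate 1 (log2 difference -0.26, standard error 0.08, adjusted p = 0.0119), to 0.831 of replicate 2 in WT and 0.844 in *Phf2* KO. *Phip* was also lower in replicate 1 (-0.27, standard error 0.10, adjusted p = 0.0307), to 0.892 in WT and 0.767 in *Phf2* KO. *Top2a* was called higher in replicate 1 (0.44, standard error 0.12, adjusted p = 0.00132), but only the WT libraries differed, by 1.90-fold, whereas replicate 1 was at 0.964 of replicate 2 in *Phf2* KO. Whether this difference between the groups exceeds the spread between cultures could not be tested with 1 library for each. *Brwd3* was not called (0.23, standard error 0.15, adjusted p = 0.328).

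To place *Top2a*, 25 genes of G2 phase and mitosis were examined, all of which were tested. None was called between *Phf2* KO and WT by edgeR, and 0 had an unadjusted p-value under 0.05. Their median log2 fold change was 0.03, with 13 higher and 12 lower, but it rested on single libraries, at 0.48 without WT replicate 1, -0.31 without WT replicate 2 and -0.028 without *Phf2* KO replicate 1. Within replicate numbers, however, the list moved as *Top2a* did. The median log2 ratio of *Phf2* KO to WT was -0.26 in replicate 1 and 0.42 in replicate 2, and 21 of 25 genes were lower in replicate 1 and higher in replicate 2, against 17.9% of all genes. Among these 21 genes were 20 that were highest in WT replicate 1 and lowest in WT replicate 2, against 8.14% of all genes. Such a gene must be lower in replicate 1 and higher in replicate 2, so the counts are not separate results. *Mki67*, a marker of proliferating cells, had 1070 and 432 counts in WT against 585 and 465 in *Phf2* KO MEFs. *Ccnb2*, a mitotic cyclin, had 207, 126, 132 and 158 counts in the same order. Both were highest in WT replicate 1 and lowest in WT replicate 2. *Cdc20*, an activator of the anaphase-promoting complex, had 11.2, 8.94, 9.94 and 11.6 CPM, and *Aurka*, a spindle kinase, had 5.77, 3.74, 6.95 and 5.53 CPM. The summed level of the list was 258.7 and 147.9 CPM in WT against 213.6 and 190.0 CPM in *Phf2* KO MEFs. The macrophage markers were also lowest in WT replicate 2 (14 of 14 genes, against 2935 of all 13668 genes tested). Their part in the level of *Top2a* was not tested.

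**Figure D4:**
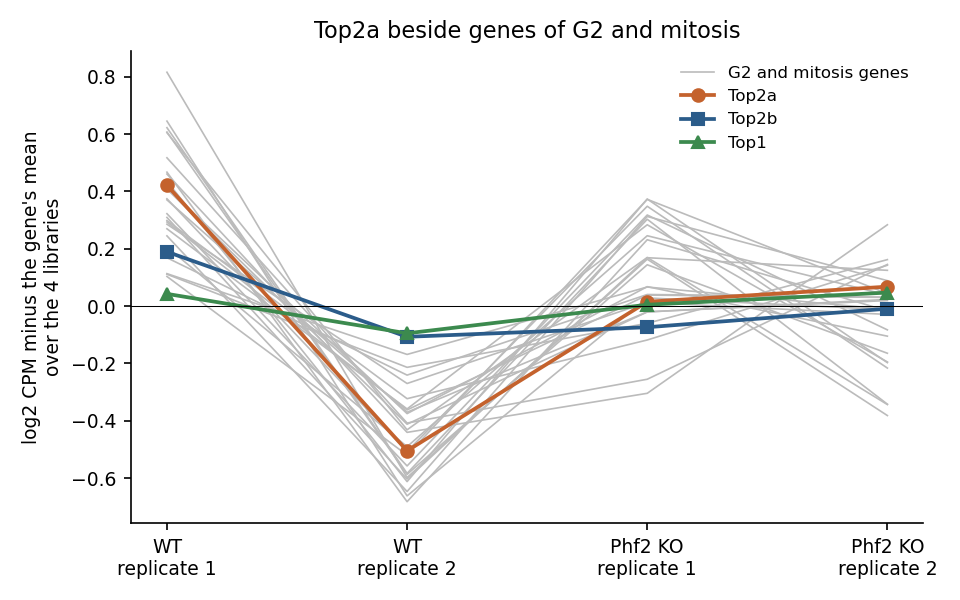
Log2 CPM of 25 genes of G2 phase and mitosis (grey), *Top2a*, *Top2b* and *Top1* in the 4 libraries, each centred on its own mean. *Top2a* runs with the grey lines, high in WT replicate 1 and low in WT replicate 2, and 25 of the 25 grey genes are lowest in WT replicate 2. Of all 13668 genes tested, 2935 are lowest in that library.

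The promoters of *Top2a* and *Top2b* are shown because the paralogs differed in how far they varied between libraries. Promoters of genes expressed in mitosis often hold CCAAT boxes, bound by NF-Y, and a cell cycle homology region (CHR) close to the start site. The 250 bases before the start in RefSeq (GRCm38.p6, a later build than mm9) are chr11:99024190-99024439 on the reverse strand for *Top2a* and chr14:16364956-16365205 on the forward strand for *Top2b*. Capitals mark CCAAT and the CHR letters TTTGAA on either strand, which read ATTGG and TTCAAA on the other.
Top2a promoter: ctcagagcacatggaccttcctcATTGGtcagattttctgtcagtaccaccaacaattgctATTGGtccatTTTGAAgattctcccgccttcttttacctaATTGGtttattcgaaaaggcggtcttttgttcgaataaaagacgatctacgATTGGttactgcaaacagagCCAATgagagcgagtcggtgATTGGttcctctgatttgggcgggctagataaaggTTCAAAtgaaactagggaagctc
Top2b promoter: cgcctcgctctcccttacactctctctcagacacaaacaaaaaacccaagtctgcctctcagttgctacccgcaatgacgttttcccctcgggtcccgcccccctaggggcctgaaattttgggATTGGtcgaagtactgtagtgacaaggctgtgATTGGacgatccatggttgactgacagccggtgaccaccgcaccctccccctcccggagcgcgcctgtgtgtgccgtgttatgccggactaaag
*Top2a* held 6 CCAAT boxes and 2 copies of TTTGAA, the nearer of which begins 23 bases before the start. *Top2b* held 2 CCAAT boxes and no TTTGAA. Of all 32851 promoters in the table, 33.8% held CCAAT, 0.0578% held 6 or more, and 16.0% held TTTGAA. Of 20 genes of the G2 and mitosis list with a promoter in the table, 18 held CCAAT, 6 held TTTGAA and 1 held 6 or more CCAAT boxes. For this list only the first promoter of each gene was counted, unlike the share over all promoters. *Brwd1*, *Brwd3*, *Phip* and *Top1* held neither, *Top3b* held 1 CCAAT box, and *Top3a* was not matched. These are matches of letters and do not show that a factor binds. Whether they bear on the spread between libraries was not tested.

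Partners of the members were examined in the same way. Of 25 genes whose products assist topoisomerases or repair the DNA breaks they leave, 23 were tested, 12 higher and 11 lower in *Phf2* KO, with a median log2 fold change of 0.01 and none called without the replicate block. *Xrcc1*, which repairs single-strand breaks, and *Fxr1*, an RNA-binding protein, were the most abundant per kb, with log2 fold changes of 0.07 and 0.06. *Top1mt*, the mitochondrial topoisomerase, had the largest difference, -0.30 (standard error 0.17), with 14.6 and 15.1 CPM in WT against 13.6 and 10.7 CPM in *Phf2* KO MEFs. *Rad50*, a subunit of the Mre11 complex that trims protein-blocked DNA ends, followed with -0.29 (standard error 0.10) and was the only gene of the list with an unadjusted p-value under 0.05 (adjusted p = 0.999 from edgeR, 0.0256 with the replicate block, which calls it). It had 1285 and 1236 counts in WT against 858 and 994 in *Phf2* KO MEFs, lower in both replicates. With the block, edgeR called 1 of the 23 genes, against 11% of all genes tested. *Spo11*, the meiotic relative of topoisomerases, was not counted in any library.

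Among 22 genes of the Cul4-Ddb1 ligase, 12 were higher and 10 lower, with a median log2 fold change of 0.01, and none was called or had an unadjusted p-value under 0.05. *Ddb1*, the adaptor, was far more abundant than the members, with 24944 and 28235 counts in WT against 21973 and 26314 in *Phf2* KO MEFs and a log2 fold change of 0.02 (standard error 0.10). *Dcaf8*, a substrate receptor, had a log2 fold change of 0.01. The largest differences were 0.34 (standard error 0.22) for *Ddb2*, a receptor for ultraviolet damage, and -0.28 (standard error 0.48) for *Dtl*, a receptor active in S phase, both at low counts of 38 to 127.

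Of 34 other bromodomain genes, 33 were tested, 14 higher and 19 lower, with a median log2 fold change of -0.02, and without the replicate block none was called or had an unadjusted p-value under 0.05. *Trim28*, a corepressor, and *Smarca4*, a remodelling ATPase, were the most abundant per kb (-0.07 and 0.01). *Baz1a*, a subunit of ISWI remodellers, had the largest difference. It had 877 and 817 counts in WT against 915 and 944 in *Phf2* KO MEFs, or 36.4, 31.5, 44.2 and 39.3 CPM, higher in both *Phf2* KO libraries (0.30, standard error 0.12, adjusted p = 0.999 from edgeR, 0.0226 with the replicate block, which calls it). With the block, edgeR called 1 of the 33 genes, against 11% of all genes tested. *Trim33* was lower in both *Phf2* KO libraries than in both WT libraries (-0.24, standard error 0.13).

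**Figure D5:**
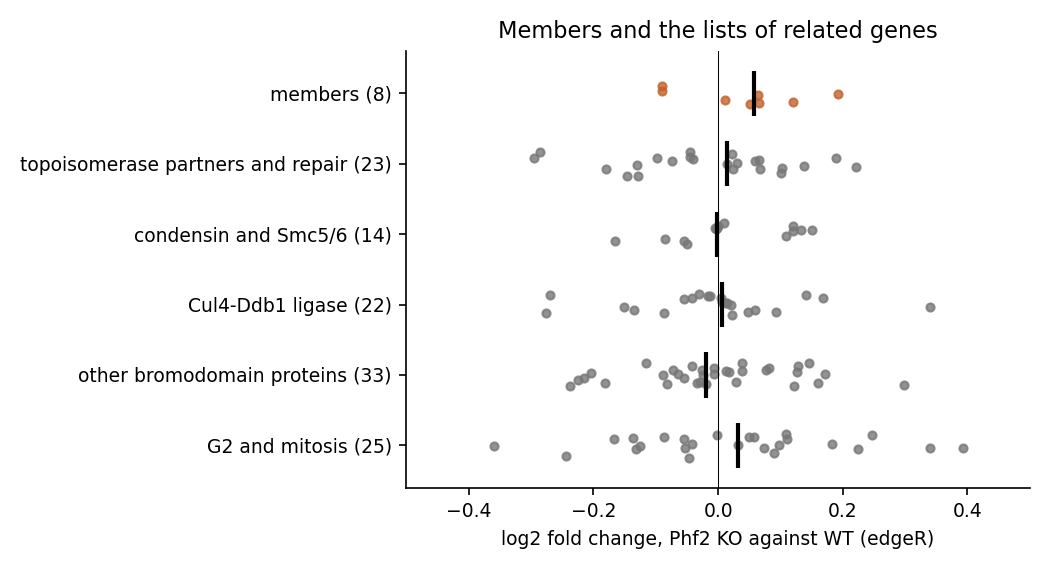
Log2 fold change of *Phf2* KO against WT by edgeR for the 8 members and for each tested gene of 5 lists, with the number of genes in parentheses and a bar at the median. Every list centres within 0.06 of 0, and the genes of G2 and mitosis spread most widely, from -0.36 to 0.39.

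Finally, the genes whose levels varied most like those of *Top2a*, *Top2b* and *Brwd1* were sought among all genes tested, by the distance between log2 CPM values centred on each gene's mean over the 4 libraries. For *Top2a* these were *Kif20b* (distance 0.0892), *Ccnb2* (0.110) and *Sox2* (0.128). *Kif20b* had 105 and 56 counts in WT against 70 and 81 in *Phf2* KO MEFs, and *Sox2* had 77 and 47 against 54 and 59, all low counts. For *Top2b* they were *D3Ertd254e* (0.00909), *Tmed8* (0.0165) and *Lancl2* (0.0236), and for *Brwd1* they were *Hnrnpr* (0.0108), *Ddhd2* (0.0108) and *Zbtb5* (0.0114).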

How the data were processed

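Per the paper's methods, the authors trimmed single reads with Trim Galore, removed ribosomal RNA with bowtie2, aligned to mm9 with STAR and assigned reads to genes with featureCounts. Versions and the annotation release are not given in the sources used here. The deposited counts are whole numbers per gene symbol without normalization. A deposited table of the authors' own DESeq2 comparison was not used. Genes were kept by filterByExpr (13668 of 24391), libraries scaled by TMM (factors 0.983 to 1.01) and genotype tested with edgeR 4.0.16 (quasi-likelihood, Benjamini-Hochberg over all genes kept) in R 4.3.3. DESeq2 1.42.0, limma 3.58.1 and other scalings and filters were alternatives. The code was tested on simulated data. Gene models were those of GENCODE M1 (NCBIM37, the same build as mm9), promoters those of RefSeq. Counting intervals are exact binomial intervals and cover counting error only. Figures used Matplotlib 3.10.9.

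The members and gene lists were chosen with earlier results of these data known. Genes named were the members, *Phf2*, per list any gene called, the 2 highest per kb and the 2 with the largest differences, the 2 most abundant of each marker list, and the 3 nearest to *Top2a*, *Top2b* and *Brwd1* (with 0.5 added to counts). Other markers, *Xist*, *Ddx3y* and *Spo11* were named after their values were seen.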

Additional observations from a re-analysis of the deposited data

How the results depend on the processing

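None of the 8 members was called under any alternative that gave it an adjusted p, and 6 changed sign in a fit without 1 library: *Top1* ranged from -0.032 to 0.13, *Top2a* from -0.40 to 0.56, *Top2b* from -0.25 to 0.078, *Top3b* from -0.062 to 0.19, *Brwd1* from -0.0076 to 0.13 and *Phip* from -0.085 to 0.30 (log2). Without 1 library *Top3a* ranged from -0.14 to -0.044 and *Brwd3* from 0.038 to 0.36. With library size alone *Top2a* was at -0.0037. Over all genes, edgeR called 0 higher and 1 lower, DESeq2 10 and 54, the likelihood ratio test 3 and 38, limma-voom 0 and 0 and a threshold of 0.05 0 and 0. Without any 1 library, 0 higher and 0 lower were called. The cause was not tested. Replicate numbers are not stated to pair the libraries, though their log2 differences went together in the 2 groups (Pearson's r = 0.849 across 11556 genes, which are not independent). With the replicate block edgeR called 789 and 711 genes, 11% of all genes tested, *Phf2* among them (adjusted p = 7.67e-19). It called 0 of the 8 members (adjusted p from 0.540 to 0.828). Of the 23 tested genes of topoisomerase partners and repair it called 1, *Rad50* (-0.28, adjusted p = 0.0256). Of the 33 tested bromodomain genes it called 1, *Baz1a* (0.30, adjusted p = 0.0226). Neither list exceeded the share over all genes. The block in DESeq2 (175 and 122) and limma-voom (725 and 646) was added after seeing the data and called 0 members. List medians moved most for G2 and mitosis (-0.31 to 0.48 without 1 library) and condensin (-0.14 to 0.12), from 0.03 and -0.0011. They moved for topoisomerase partners to -0.0068 (DESeq2), -0.017 (all genes with at least 1 count) and -0.044 to 0.0056 (without 1 library), and for bromodomain genes to -0.0062 (limma-voom), -0.037 (library size alone), -0.0063 (replicate block) and -0.028 to 0.020 (without 1 library). Per kb of the longest transcript, levels were 19.5 for *Top1*, 3.41 for *Top2a*, 11.4 for *Top2b*, 6.03 for *Top3a*, 27.3 for *Top3b* and 5.85 for *Brwd1*. Without division by length, shares were 21.3% for *Top2a*, 61.0% for *Brwd1*, 8.58% for *Brwd3* and 30.4% for *Phip*.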

Other observations

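Condensin shapes mitotic chromosomes together with Top2a, and Smc5/6 is a related complex of DNA repair. All 14 of their genes examined were tested, 6 higher and 8 lower in *Phf2* KO MEFs, with a median log2 fold change of -0.0011 (0.12 without WT replicate 1, -0.14 without WT replicate 2), and none was called by edgeR or had an unadjusted p-value under 0.05. Of these genes, 8 were highest in WT replicate 1 and lowest in WT replicate 2, as *Top2a* was, against 8.14% of all genes tested. *Ncapg*, a condensin subunit with the largest difference in size (-0.16, standard error 0.45), had 34 and 18 counts in WT against 18 and 24 in *Phf2* KO MEFs (replicate 1 first). *Ncaph2*, a subunit of the second condensin complex, was the most abundant per kb and had 80.7, 93.4, 83.3 and 90.3 CPM in the same order, with WT replicate 1 lowest. *Nsmce1*, of Smc5/6, had 22.1, 26.6, 28.6 and 25.4 CPM.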
